A study of Mus musculus with 4 samples.

Results

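The genes that carry glucose to lactate were followed in 4 tumour libraries, 2 labelled Mst4 KO and 2 labelled WT. The set holds 33 genes chosen by symbol for glucose uptake, glycolysis, glycogen, lactate export and the gate to the mitochondria, out of 23258 rows in the deposited table, and the rule that picks them uses no measured value. Each of the 33 symbols matched 1 row, and all 33 passed the filter on low counts, which left 16030 genes tested. The labels describe gastric tumours of C57BL/6 mice at postnatal week 20. Mst4 KO stands for Mst4F/F UBCcre animals, in which a Cre driven by the broadly active ubiquitin C promoter removes a floxed Mst4, and WT is the comparison genotype. The labels do not say whether WT animals carried the floxed allele or the Cre, what set off the tumours, or whether replicates 1 and 2 are different animals. The p-values therefore cover only the variation among these 4 libraries, part of which could be technical.

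Glycolysis splits glucose into pyruvate in the cytosol. Pyruvate is either reduced to lactate and exported or passed to mitochondria through the pyruvate dehydrogenase complex, which pyruvate dehydrogenase kinases switch off. Most steps have several paralogous enzymes, and low oxygen is known to raise many of them through hypoxia-inducible factors. Rapidly growing tumours are known for high glucose uptake and lactate output.

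The labels give mouse, but every row identifier carries the human taxon prefix beside a human symbol, and 0 of the gene numbers equal a mouse gene number. The rows thus follow a human gene list, which does not match the mouse label. Whether the reads came from mouse or human cells was not tested. Human symbols are used here, and KO and WT mean the libraries so labelled. The targeted gene MST4, listed as STK26, was at 9.03 and 7.35 CPM (estimated counts scaled to the TMM-adjusted library total) in KO replicates 1 and 2, against 54.1 and 54.8 CPM in WT replicates 1 and 2. Its log2 fold change of -2.73 (SE 0.26) did not pass the edgeR quasi-likelihood test in all 4 libraries (adjusted p = 0.834), but it passed in DESeq2 (adjusted p = 8.49e-12) and, once WT replicate 1 was left out, in edgeR too (-2.74, adjusted p = 2.99e-49). The difference was smaller in the deposited FPKM, at 5.22 and 5.75 FPKM in KO, against 17.23 and 17.24 FPKM in WT replicates 1 and 2 (-1.49 on the log2(FPKM + 1) scale). WT replicate 1 stood apart from the other libraries, and its total of 30505281 estimated counts exceeded the 18613533 to 18804535 of the others. Across tested genes, 20.6% were at least 2-fold apart between WT replicate 1 and WT replicate 2, and 1.63% between the KO libraries. Of 13 gastric epithelial markers in the table, 9 stayed under 1 CPM in every library, TFF2 was at 0 in all of them and the epithelial cadherin CDH1 reached at most 0.511 CPM. The keratins KRT8 and KRT18, which many epithelia share, made up most of the markers' summed level. That summed level of these markers was 1962 to 2243 CPM in KO, 1062 and 2771 CPM in WT replicates 1 and 2. The labels describe tumours, but whether these libraries hold mixed tissue was not tested. In a bulk library, fewer cells of a type and less RNA per cell cannot be told apart.

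Most glycolysis and lactate genes had a lower mean in KO than in WT, and for most of them the difference was small without WT replicate 1. With all 4 libraries, 27 of the 33 genes had a lower mean in KO and 6 a higher one. Of all tested genes, 51.4% were lower in KO in that fit. The median log2 fold change of the 33 genes was -0.45, against -0.01 over all tested genes. Without WT replicate 1, 18 of the 33 were lower and 15 higher, near the 48.3% of all tested genes that were lower. The median of the 33 was then -0.02. The edgeR test called 0 of the 33 genes at adjusted p under 0.05 with all 4 libraries, where it called 0% of all tested genes, and 1 of the 33, PGK1, had an unadjusted p under 0.05, as did 668 of the tested genes. DESeq2 also called 0 of the 33, against 0.25% of all genes, with a smallest adjusted p of 0.232 among the 33, and 4 of them had an unadjusted p under 0.05, as did 945 of all genes. In the edgeR fit without WT replicate 1, PGK1 and PFKFB2 fell (2 of 33, against 3.93% of genes called lower) and PFKL rose (1 of 33, against 2.54% called higher).

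**Figure D1:**
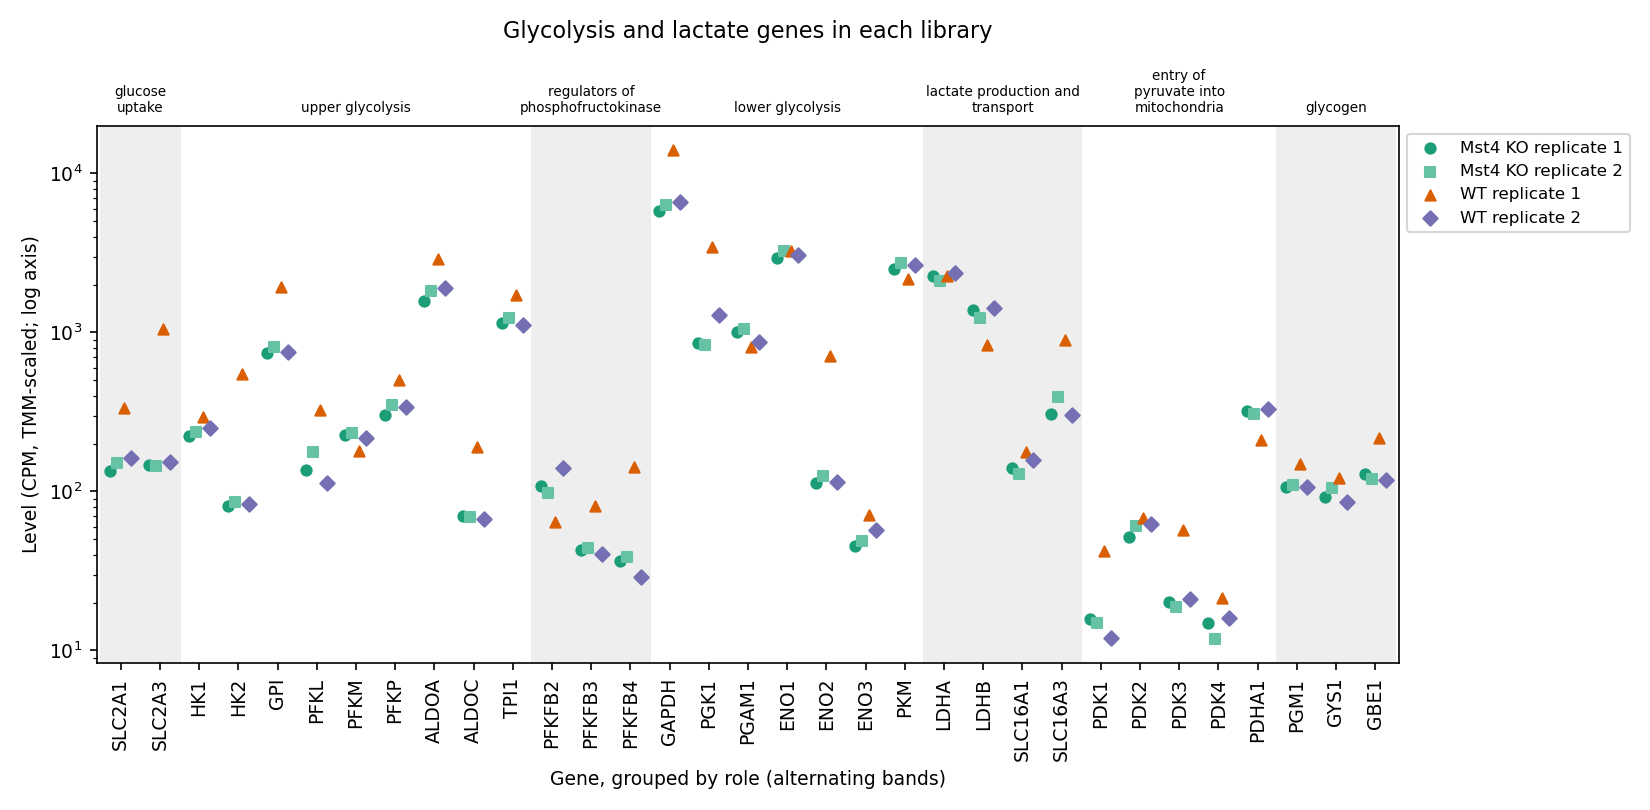
Level of each of the 33 genes in each library, in CPM on a log axis, with 1 point per library and genes grouped by role. WT replicate 1 is the highest of the 4 libraries for 25 genes, while WT replicate 2 lies close to both KO libraries for most of them.

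The glucose transporters were far higher in WT replicate 1 than in any other library. SLC2A1, which encodes the widely expressed transporter GLUT1, was at 134 and 150.5 CPM in KO replicates 1 and 2, against 337 and 161 CPM in WT replicates 1 and 2. SLC2A3, which encodes the high-affinity transporter GLUT3, was at 146 and 144 CPM in KO, against 1049 and 152 CPM in WT replicates 1 and 2. Both KO values lay below both WT values for each transporter, but the gap to WT replicate 2 was small. The log2 fold change of SLC2A3 was -2.05 (SE 0.88) with all 4 libraries and -0.07 (SE 0.15) without WT replicate 1, and that of SLC2A1 was -0.81 (SE 0.39) and -0.18 (SE 0.15). The near-identical neighbour of SLC2A3, SLC2A14, with which reads may have been shared, was at 4.09 and 4.65 CPM in KO and at 37.0 and 5.46 CPM in WT replicates 1 and 2.

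Among the enzymes of upper glycolysis, the inducible hexokinase HK2, which traps glucose in the cell, differed most between libraries. HK2 was at 81.0 and 85.3 CPM in KO, against 549 and 83.4 CPM in WT replicates 1 and 2, so that WT replicate 2 lay between the KO values. The housekeeping hexokinase HK1 was at 223 and 236 CPM in KO, against 296 and 249 CPM in WT replicates 1 and 2, with the groups just apart. Their log2 fold changes with all 4 libraries were -1.93 (SE 0.86) for HK2 and -0.25 (SE 0.22) for HK1. GPI, the glucose-6-phosphate isomerase, was at 741 and 813 CPM in KO, against 1927 and 749 CPM in WT replicates 1 and 2. Its groups overlapped, since WT replicate 2 lay between the KO libraries.

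Phosphofructokinase, which makes the committed step, is built from liver, muscle and platelet type subunits, and these did not move together. PFKL, the liver type subunit, was at 137 and 176 CPM in KO, against 325 and 113 CPM in WT replicates 1 and 2. The KO values thus lay between the WT libraries, above WT replicate 2 and below WT replicate 1. Without WT replicate 1, PFKL rose by 0.48 on the log2 scale (SE 0.15, edgeR adjusted p = 0.0273), whereas its log2 fold change was -0.48 (SE 0.53) with all 4 libraries. PFKM, the muscle type subunit, was at 227 and 234 CPM in KO, against 179 and 215 CPM in WT replicates 1 and 2. PFKP, the platelet type subunit, was at 304 and 351 CPM in KO, against 501 and 337 CPM in WT replicates 1 and 2. PFKM was thus slightly higher in both KO libraries than in either WT library (log2 fold change 0.23, SE 0.23), and PFKP overlapped.

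The bifunctional PFKFB enzymes set the level of fructose-2,6-bisphosphate, which activates phosphofructokinase, and PFKFB2 went another way than PFKFB3 and PFKFB4. PFKFB2, best known from heart, was at 108 and 97.8 CPM in KO, against 63.9 and 140.5 CPM in WT replicates 1 and 2. It was the member with the lowest ratio between the WT libraries, and the KO values lay between them. Without WT replicate 1, PFKFB2 fell by 0.45 on the log2 scale (SE 0.15, edgeR adjusted p = 0.043), against a log2 fold change of 0.01 (SE 0.41) with all 4 libraries. PFKFB4 was at 36.5 and 38.8 CPM in KO, against 143 and 28.9 CPM in WT replicates 1 and 2. PFKFB3, the strongly kinase-biased form, was at 42.7 and 43.9 CPM in KO, against 81.1 and 40.3 CPM in WT replicates 1 and 2. For PFKFB3 and PFKFB4 both KO values lay above WT replicate 2 and below WT replicate 1, and neither passed in either fit (adjusted p = 0.834 for both with all 4 libraries; 0.859 for PFKFB3 and 0.226 for PFKFB4 without WT replicate 1).

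The aldolases and triose phosphate isomerase close the upper part of the pathway. ALDOA, the main aldolase, was at 1574 and 1823 CPM in KO, against 2918 and 1902 CPM in WT replicates 1 and 2, with both KO values below both WT values. ALDOC, the brain type aldolase, was at 70.4 and 69.4 CPM in KO, against 190.04 and 67.5 CPM in WT replicates 1 and 2. TPI1, which interconverts the triose phosphates, was at 1149 and 1231 CPM in KO, against 1716 and 1108 CPM in WT replicates 1 and 2. WT replicate 1 was the highest library for each of these, and ALDOC and TPI1 overlapped between the groups.

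PGK1, the kinase that makes the first ATP of glycolysis, was the gene whose KO libraries stood farthest below both WT libraries. It was at 854 and 833 CPM in KO replicates 1 and 2, against 3441 and 1285 CPM in WT replicates 1 and 2. The KO libraries differed from each other by 0.04 on the log2 scale, and both lay well under the lower WT value. PGK1 averaged 843 ± 14.6 CPM in KO and 2363 ± 1525 CPM in WT (SD, n = 2 each). Its log2 fold change was -1.49 (SE 0.50) with all 4 libraries, which did not pass (edgeR unadjusted p = 0.0296, adjusted p = 0.834; DESeq2 adjusted p = 0.232). Without WT replicate 1 it fell by 0.61 (SE 0.13, edgeR adjusted p = 0.00028), a 1.52-fold lower level. The length-scaled FPKM values gave the same order, at 322 and 315 FPKM in KO and at 1223 and 471 FPKM in WT replicates 1 and 2. Without WT replicate 2, the log2 fold change of PGK1 was -2.00 (SE 0.13). The fits without WT replicate 1 and without WT replicate 2 share both KO libraries, so their like direction for PGK1 is not independent support.

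The remaining enzymes of lower glycolysis included the most abundant transcripts of the set, several of which hardly differed. GAPDH, the triose phosphate dehydrogenase often used as a loading control, was at 5803 and 6308 CPM in KO, against 14020 and 6621 CPM in WT replicates 1 and 2. It was the highest of all genes in the table by FPKM in WT replicate 1 and held 1.35% of that library's counts, against 0.595% and 0.646% in KO and 0.652% in WT replicate 2. PGAM1, the phosphoglycerate mutase, was at 1004 and 1052 CPM in KO, against 810.3 and 866 CPM in WT replicates 1 and 2. PGAM1 and PFKM were the 2 of 33 genes with both KO values above both WT values, as for 18.4% of all tested genes. PGAM1 had a log2 fold change of 0.30 (SE 0.22) with all 4 libraries and 0.25 (SE 0.14) without WT replicate 1, and passed in neither.

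Enolase removes water to make phosphoenolpyruvate, and its paralogues differed widely. The ubiquitous enolase ENO1 was at 2961 and 3266 CPM in KO, against 3257 and 3064 CPM in WT replicates 1 and 2, with full overlap. ENO2, the neuronal type enolase, was at 113 and 124 CPM in KO, against 716 and 114 CPM in WT replicates 1 and 2. ENO3, the muscle type enolase, was at 45.1 and 48.9 CPM in KO, against 71.4 and 56.8 CPM in WT replicates 1 and 2. ENO2 in WT replicate 1 was 6.27-fold above WT replicate 2, while ENO3 in both KO libraries lay a little below both WT libraries. The summed level of 6 neuronal markers was 15.0 to 15.4 CPM in KO, 18.8 and 20.6 CPM in WT replicates 1 and 2. The summed level of the 8 muscle markers in the table was 4.12 to 4.52 CPM in KO, 15.2 and 6.52 CPM in WT replicates 1 and 2, and 5 of them stayed under 1 CPM in every library. The part of neuronal cells in the ENO2 values, and of muscle cells in the ENO3 and PFKM values, was not tested. PKM, the pyruvate kinase that ends the pathway, was at 2512 and 2722 CPM in KO, against 2173 and 2649 CPM in WT replicates 1 and 2, and did not separate the groups.

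Lactate dehydrogenase transcripts did not follow the transporters and HK2. LDHA, whose subunit favours making lactate, was at 2273 and 2097 CPM in KO, against 2269.7 and 2356 CPM in WT replicates 1 and 2. LDHB, whose subunit favours using it, was at 1378 and 1224 CPM in KO, against 829 and 1435 CPM in WT replicates 1 and 2. LDHA was nearly level in all libraries, with a log2 fold change of -0.08 (SE 0.22), and LDHB was lowest in WT replicate 1. SLC16A3, which encodes the lactate exporter MCT4, was at 305 and 390.3 CPM in KO, against 902 and 304 CPM in WT replicates 1 and 2. SLC16A1, which encodes the lactate transporter MCT1, was at 141 and 129 CPM in KO, against 176 and 158 CPM in WT replicates 1 and 2. SLC16A1 was thus a little lower in both KO libraries (log2 fold change -0.30, SE 0.22), and SLC16A3 overlapped, with WT replicate 1 above the rest.

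At the entry of pyruvate into mitochondria, the kinases and their target moved in opposite directions between the WT libraries. PDK1, a kinase that inactivates pyruvate dehydrogenase, was at 15.7 and 14.9 CPM in KO, against 42.4 and 11.9 CPM in WT replicates 1 and 2. PDK3 was at 20.3 and 18.8 CPM in KO, against 57.4 and 21.0 CPM in WT replicates 1 and 2. PDHA1, the catalytic subunit that these kinases phosphorylate, was at 321 and 308 CPM in KO, against 211 and 329.7 CPM in WT replicates 1 and 2. WT replicate 1 was thus highest for both kinases and lowest for PDHA1, whereas WT replicate 2 lay near the KO libraries for all of them. PDK2 was at 51.8 and 60.3 CPM in KO, against 68.3 and 62.1 CPM in WT replicates 1 and 2. PDK4, known as a kinase of the fasting response, was at 14.9 and 11.9 CPM in KO, against 21.4 and 15.9 CPM in WT replicates 1 and 2. PDK2, PDK3 and PDK4 were each below both WT libraries in both KO libraries.

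The glycogen genes differed little between the KO libraries and WT replicate 2. PGM1, which links glucose-6-phosphate to glycogen, was at 106 and 110.4 CPM in KO, against 149 and 106 CPM in WT replicates 1 and 2. GYS1, the muscle type glycogen synthase, was at 92.4 and 105 CPM in KO, against 121 and 85.9 CPM in WT replicates 1 and 2. GBE1, the branching enzyme, was at 129 and 119 CPM in KO, against 217 and 118 CPM in WT replicates 1 and 2. WT replicate 1 was the highest library for all 3, and WT replicate 2 the lowest, so the groups overlapped.

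In all, both KO values lay below both WT values for 11 of the 33 genes, against 19.1% of all tested genes. These were SLC2A1, SLC2A3, HK1, ALDOA, GAPDH, PGK1, ENO3, SLC16A1, PDK2, PDK3 and PDK4. None but PGK1 was called in the fit without WT replicate 1, and their log2 fold changes there lay between -0.61 and -0.07. That fit leaves WT replicate 2 as a lone library that is assumed to vary like the KO libraries, so its p-values do not cover the spread within WT.

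**Figure D2:**
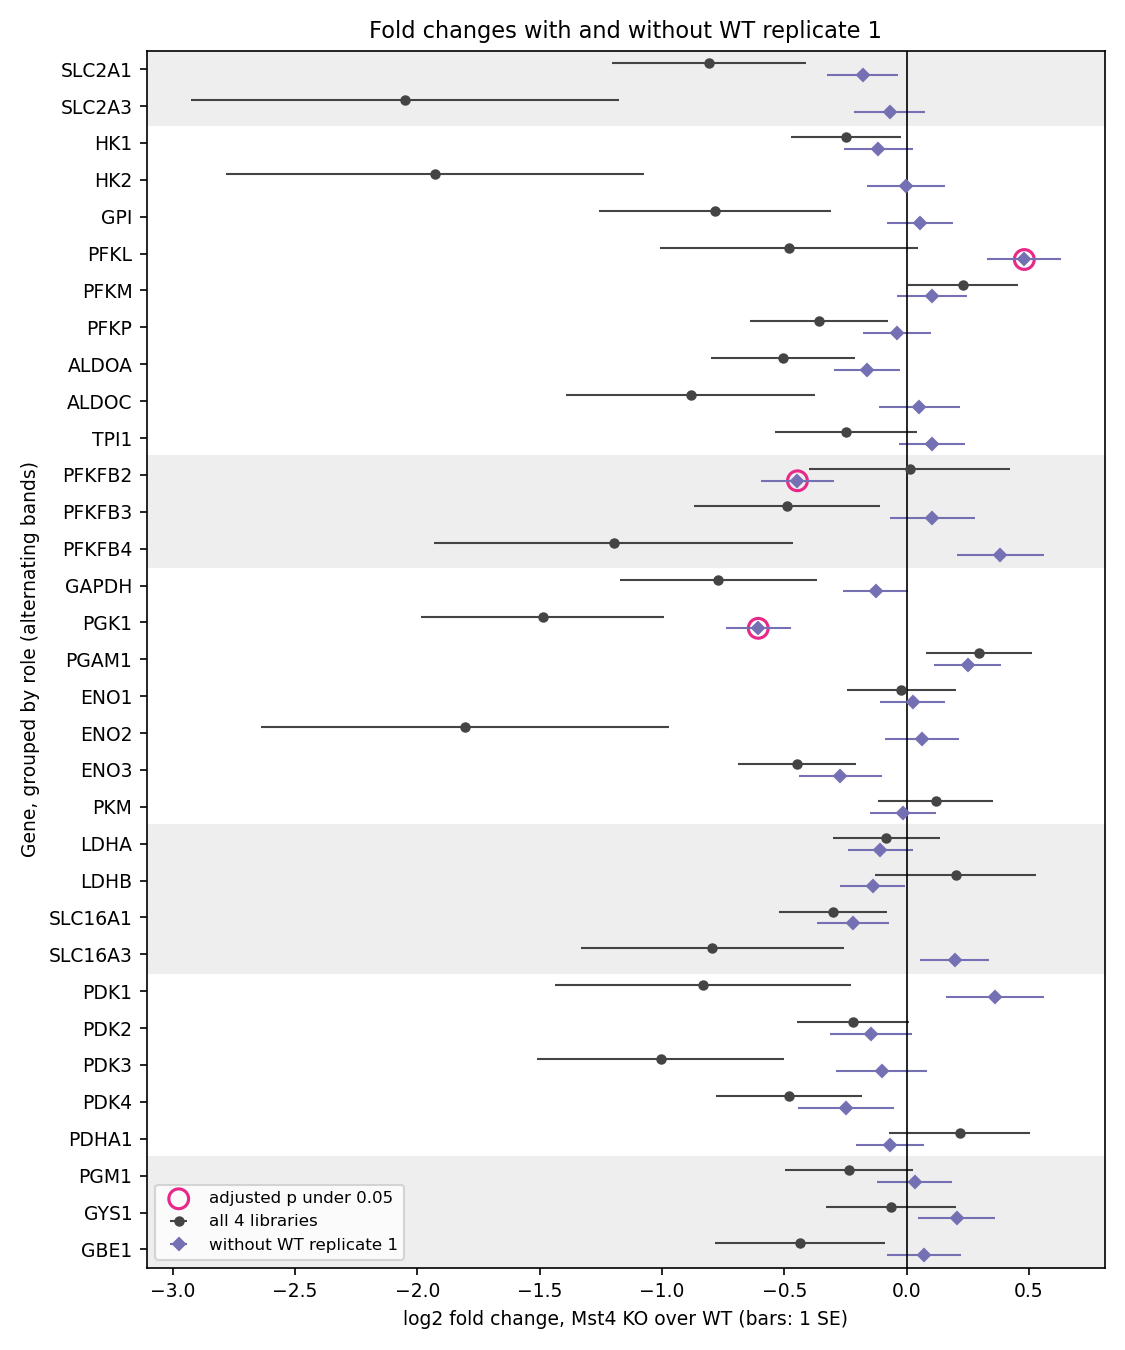
Log2 fold change of KO over WT for each of the 33 genes with all 4 libraries (circles) and without WT replicate 1 (diamonds); bars are 1 SE and rings mark adjusted p under 0.05 in edgeR. Large negative values with all 4 libraries, such as -2.05 for SLC2A3, -1.93 for HK2 and -1.81 for ENO2, shrink to near 0 without WT replicate 1, while PGK1 keeps a value of -0.61.

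Set apart from each other, the WT libraries differed more in these genes than either KO library differed from WT replicate 2. WT replicate 1 was at least 2-fold above WT replicate 2 for 14 of the 33 genes, against 12.9% of all tested genes, and at least 2-fold below it for 1, PFKFB2, against 7.79%. These are ratios of a single library to another and have no test. The highest ratios were 6.87-fold for SLC2A3, 6.55-fold for HK2, 6.27-fold for ENO2 and 4.90-fold for PFKFB4. PDK1 followed at 3.45-fold, SLC16A3 at 2.96-fold, PFKL at 2.88-fold, ALDOC at 2.80-fold, PDK3 at 2.69-fold and PGK1 at 2.68-fold. PFKFB3 was just inside the 2-fold limit at 2.00-fold and GBE1 just outside it at 1.84-fold. At the low end, PFKFB2 was 2.19-fold, LDHB 1.73-fold, PDHA1 1.56-fold, PKM 1.22-fold and PFKM 1.21-fold lower in WT replicate 1. ENO1, LDHA and PGAM1 were within 1.07-fold of the other WT library. None of the 33 was 2-fold apart between KO replicate 1 and KO replicate 2, or between WT replicate 2 and either KO library, against 1.63%, 2.84% and 2.94% of all tested genes, so the count of 0 is near the share over all genes.

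**Figure D3:**
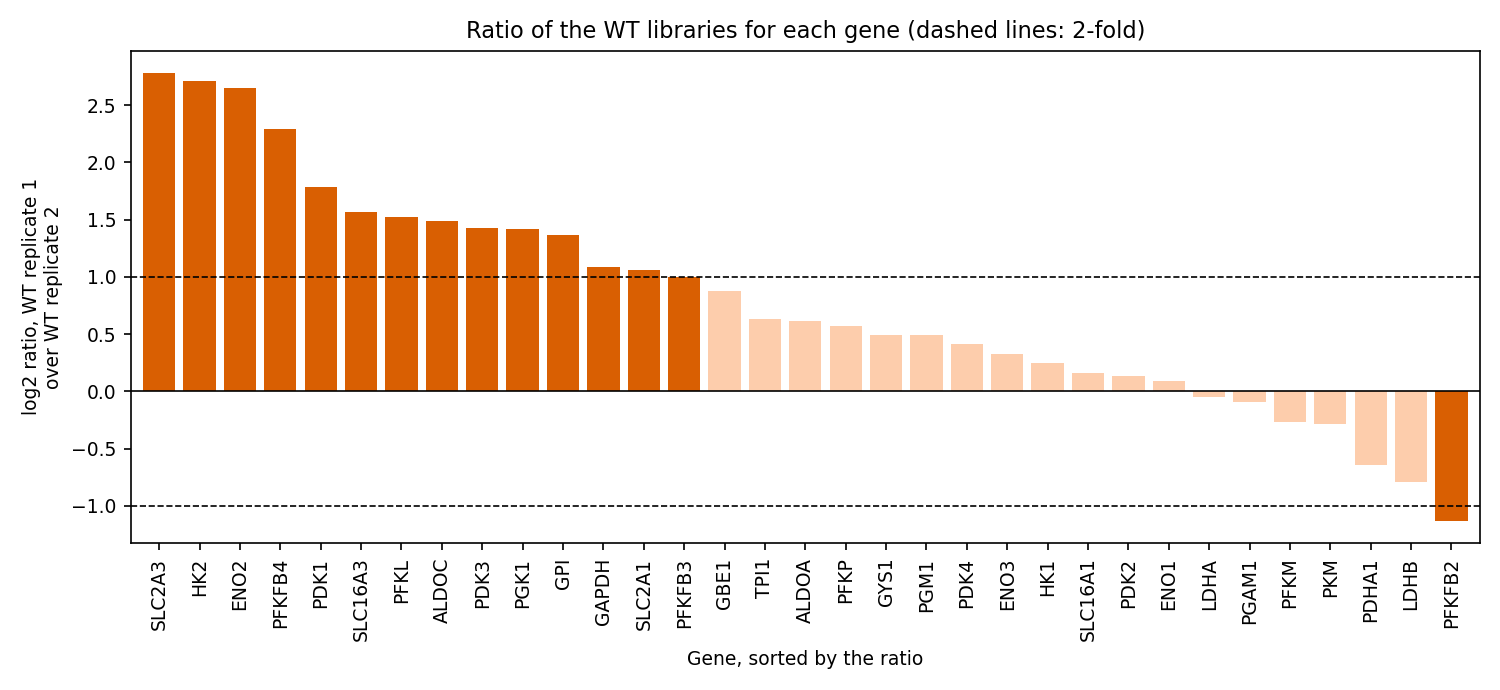
Log2 ratio of WT replicate 1 over WT replicate 2 for each of the 33 genes, sorted; dark bars are at least 2-fold apart and dashed lines mark 2-fold. SLC2A3, HK2 and ENO2 head the row at 6.87-, 6.55- and 6.27-fold, ENO1 and LDHA sit near 0, and PFKFB2 is the single gene past 2-fold in the other direction.

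WT replicate 1 was the highest of the 4 libraries for 25 of the 33 genes, against 40.6% of all tested genes, and the lowest for 6, against 39.8%. The fit without WT replicate 2, which sets the KO libraries against WT replicate 1, called 23 of the 33 genes lower in KO, against 26.1% of genes, and 5 higher, against 25.2%. The 5 higher in KO were PFKM, PFKFB2, PGAM1, LDHB and PDHA1. Since this fit takes its spread from the KO libraries, the calls compare them with a single WT library, not the genotypes. The 33 genes together held 2.37% and 2.50% of all counts in KO replicates 1 and 2, against 3.85% in WT replicate 1 and 2.46% in WT replicate 2. WT replicate 1 was also the deepest library, and the part of depth in these differences was not tested. The counts behind the values were between 221 and 413012 per gene and library.

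Which paralogue carried a step was compared on the FPKM scale, which divides by transcript length. These shares are a description with no test. HK2 supplied 17.5% and 17.4% of the hexokinase FPKM (HK1 and HK2) in KO, against 53.5% in WT replicate 1 and 16.4% in WT replicate 2. SLC2A3 supplied 51.1% and 47.8% of the transporter FPKM (SLC2A1 and SLC2A3) in KO, against 75.1% in WT replicate 1 and 47.5% in WT replicate 2. HK2 was thus the larger hexokinase in WT replicate 1 and HK1 in the other libraries, while the 2 transporters were near parity outside WT replicate 1.

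The leading form of the PFKFB family was PFKFB4 in WT replicate 1 and PFKFB2 in the other libraries. PFKFB4 supplied 24.5% and 27.2% of the FPKM of PFKFB2, PFKFB3 and PFKFB4 in KO, against 54.1% in WT replicate 1 and 18.6% in WT replicate 2. PFKFB2 supplied 49.9% and 45.6% in KO, against 17.2% in WT replicate 1 and 59.0% in WT replicate 2. Both KO libraries had a larger share of PFKFB4 and a smaller share of PFKFB2 than WT replicate 2. LDHB supplied 50.7% and 49.8% of the lactate dehydrogenase FPKM in KO, against 38.3% in WT replicate 1 and 50.8% in WT replicate 2. ENO2 supplied 2.16% and 2.04% of the enolase FPKM in KO, against 11.8% in WT replicate 1 and 2.14% in WT replicate 2, so ENO1 stayed the dominant enolase in every library.

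Among phosphofructokinase subunits, PFKP was the largest in every library. PFKP supplied 44.4% and 44.7% of the FPKM of PFKL, PFKM and PFKP in KO, against 52.4% and 51.4% in WT replicates 1 and 2. These shares did not overlap between KO and WT (44.6 ± 0.208% in KO and 51.9 ± 0.669% in WT, SD, n = 2 each). The shares of ENO1 and ENO3 among the enolases did not overlap either. With 2 libraries a group, an exact two-sided permutation test cannot go below p = 0.333. PFKL supplied 20.9% and 23.6% in KO, against 30.9% in WT replicate 1 and 16.2% in WT replicate 2. PDK2 was the largest of the 4 kinases in every library, at 61.3% and 66.8% of their FPKM in KO, against 48.0% and 66.04% in WT replicates 1 and 2.

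**Figure D4:**
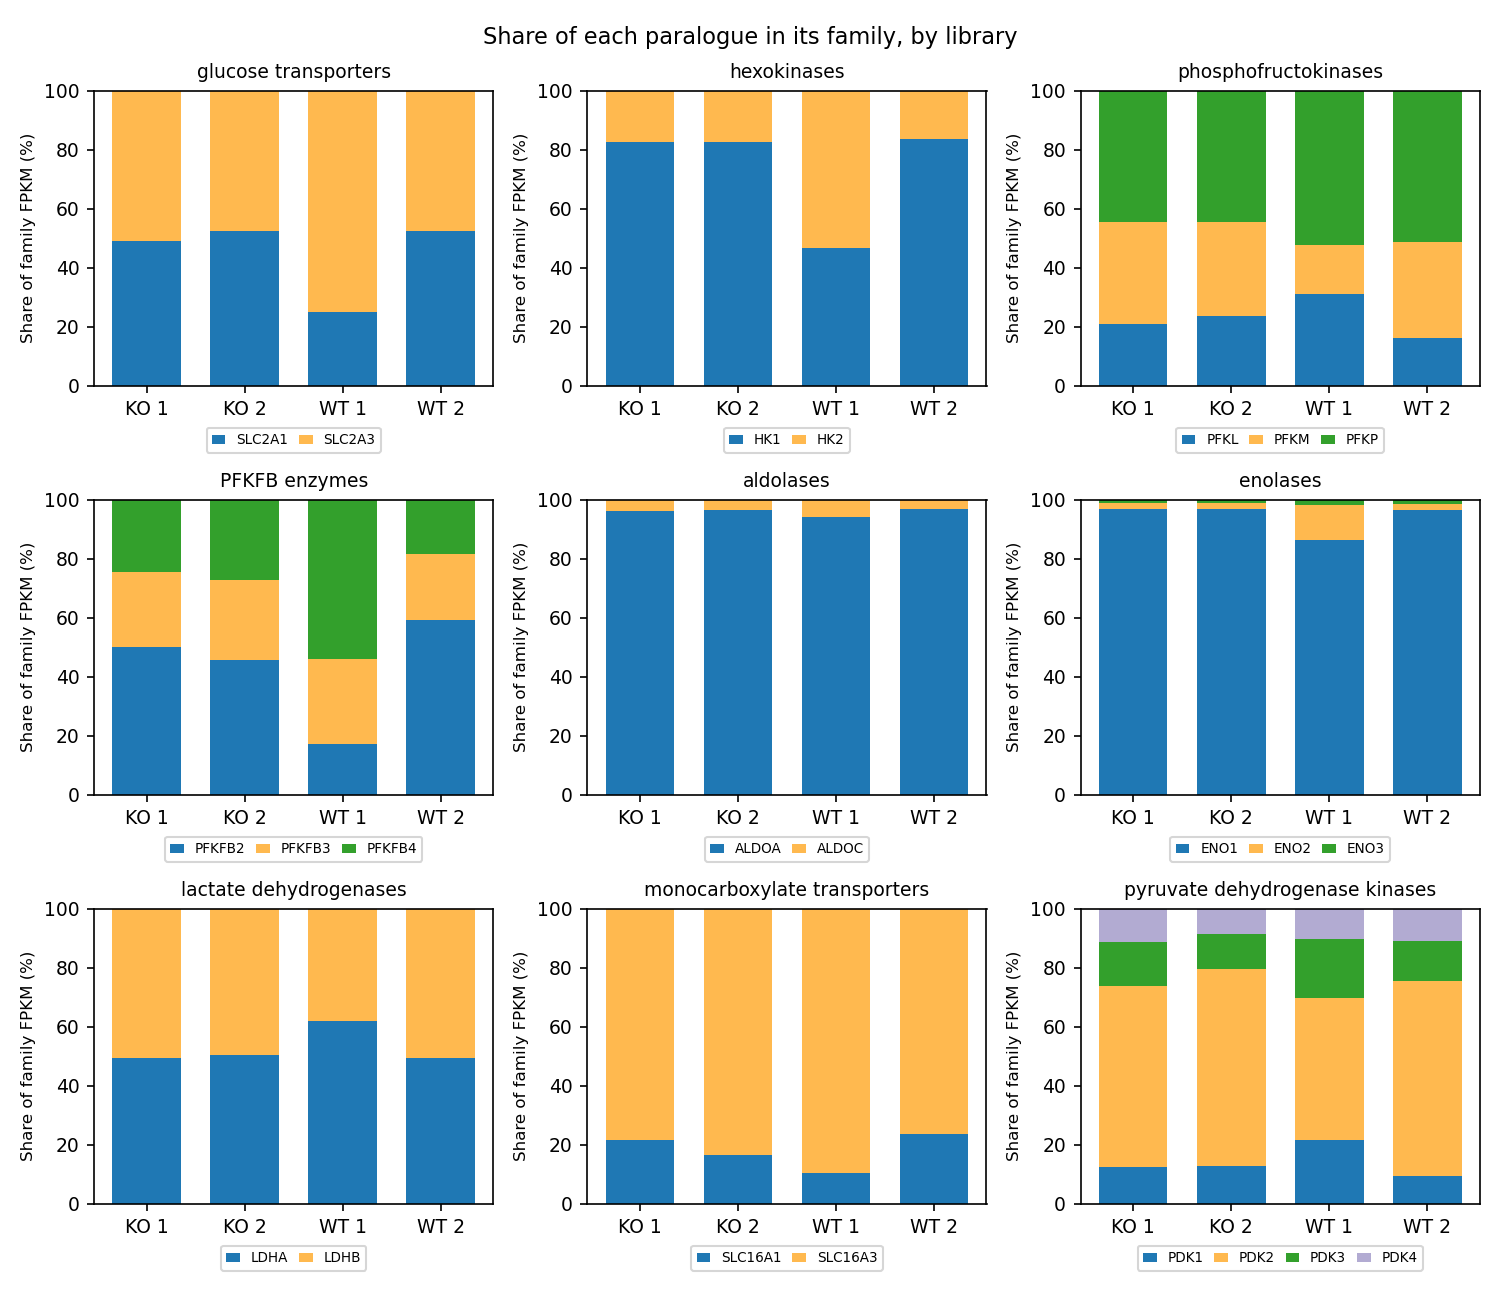
Share of each paralogue in the summed FPKM of its family, in percent, for KO replicates 1 and 2 and WT replicates 1 and 2. WT replicate 1 differs from the other 3 libraries in most families, with 53.5% HK2 and 54.1% PFKFB4, while ALDOA and ENO1 dominate their families everywhere.

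By level per length, the order of the genes was much alike in the KO libraries and WT replicate 2. GAPDH led in every library, at 4254 and 4632 FPKM in KO, against 9997 and 4687 FPKM in WT replicates 1 and 2. ENO1 came next in both KO libraries and WT replicate 2, at 1552 and 1715 FPKM in KO and 1552 FPKM in WT replicate 2, while ALDOA took that place in WT replicate 1 at 1682 FPKM. PDK4 and PDK1 were among the lowest, at 2.96 to 4.44 FPKM in KO, against 5.22 FPKM (PDK4) and 11.01 FPKM (PDK1) in WT replicate 1 and 3.85 and 3.20 FPKM in WT replicate 2. Neighbours in the order such as LDHA and LDHB did not differ beyond their spread in KO, at 962 and 888 FPKM for LDHA and 989 and 881 FPKM for LDHB.

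The neighbouring pathways gave 0 calls with all 4 libraries in edgeR and in DESeq2, where 0% and 0.25% of all tested genes were called. For 20 tested genes of other glucose transport and glycolysis enzymes, the median log2 fold change was -0.39 with all 4 libraries. It was -0.18 without WT replicate 1. Within this list of 20, the smallest unadjusted p-values in the edgeR fit of all 4 libraries belonged to the transporters SLC2A13 (0.0342), SLC2A14 (0.0511) and SLC2A12 (0.0630), each lower in both KO libraries than in both WT libraries. SLC2A13, a proton-coupled inositol transporter, was at 11.2 and 11.3 CPM in KO, against 40.4 and 16.6 CPM in WT replicates 1 and 2. BSG, the chaperone that brings MCT1 and MCT4 to the membrane, was at 757 and 889 CPM in KO, against 2169 and 907 CPM in WT replicates 1 and 2. The liver type pyruvate kinase PKLR did not exceed 0.067 CPM, and HK3 was at 0 in every library.

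Over 19 tested genes of glycogen metabolism, the median log2 fold change was -0.28 with all 4 libraries and -0.00036 without WT replicate 1. Of these, PGM2, a phosphopentomutase, was at 43.6 and 37.9 CPM in KO, against 39.7 and 60.6 CPM in WT replicates 1 and 2. Its log2 fold change was -0.57 (SE 0.17) without WT replicate 1 and -0.30 (SE 0.30) with all 4 libraries. Without WT replicate 1, the median was -0.13 for 10 tested genes of the pyruvate dehydrogenase complex and pyruvate carriers. In the same fit it was -0.06 for 8 genes of the pentose phosphate pathway and 0.26 for 5 of gluconeogenesis. Their medians with all 4 libraries were 0.16, 0.03 and -0.34 on the log2 scale, against -0.45 for the 33 genes. TKT, the pentose phosphate transketolase, was at 799 and 935 CPM in KO, against 808 and 882 CPM in WT replicates 1 and 2, with overlap. PCK2, a mitochondrial enzyme that makes phosphoenolpyruvate, was at 19.8 and 22.9 CPM in KO, against 107 and 17.9 CPM in WT replicates 1 and 2.

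Over 5 tested glucose sensing genes, the median log2 fold change was -0.68 with all 4 libraries and 0.10 without WT replicate 1. TXNIP, which glucose induces and which restrains glucose uptake, was at 275 and 252 CPM in KO, against 980.5 and 178 CPM in WT replicates 1 and 2. The log2 fold change of TXNIP was 0.56 (SE 0.15) without WT replicate 1 and -1.14 (SE 0.77) with all 4 libraries. Over 13 tested oxygen sensing regulators, the median was -0.45 with all 4 libraries and 0.06 without WT replicate 1. One of them, VHL, marks hypoxia-inducible factors for destruction. VHL was at 53.0 and 48.2 CPM in KO, against 109 and 73.4 CPM in WT replicates 1 and 2. Its log2 fold change without WT replicate 1 was -0.53 (SE 0.17). HIF1A, which encodes the oxygen-regulated factor subunit, was at 397 and 356 CPM in KO, against 495 and 388 CPM in WT replicates 1 and 2, and overlapped.

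Genes known to be induced by low oxygen outside glycolysis were mostly higher in WT replicate 1 as well. Of 16 such genes, 15 were at least 2-fold higher in WT replicate 1 than in WT replicate 2, against 12.9% of all tested genes. Their summed level was 1047 and 1053 CPM in KO, against 8184 and 972 CPM in WT replicates 1 and 2. With all 4 libraries 0 of the 16 were called. In that fit all 16 had a lower mean in KO, and their median log2 fold change was -1.49. Without WT replicate 1, their median log2 fold change was 0.17. In that fit it was 0.51 (SE 0.17) for CA9, a carbonic anhydrase. For ERO1A, an oxidase of the endoplasmic reticulum, it was 0.53 (SE 0.16). The part of low oxygen in these values was not tested. Summed levels of fibroblast, leukocyte and endothelial markers also differed between the WT libraries. Of these markers, 2 of 7 fibroblast, 3 of 6 leukocyte and 2 of 6 endothelial ones stayed under 1 CPM in every library. The summed level of 7 fibroblast markers was 116 to 136 CPM in KO, 193 and 141 CPM in WT replicates 1 and 2. That of the 6 leukocyte markers in the table was 16.6 to 20.02 CPM in KO, 41.1 and 23.1 CPM in WT replicates 1 and 2, and that of 6 endothelial markers was 19.5 to 29.9 CPM in KO, 43.2 and 35.6 CPM in WT replicates 1 and 2. The 4 erythroid markers in the table stayed under 1 CPM in every library. One of them, ALAS2, an enzyme of heme synthesis in red cell precursors, was at 0 in every library. The part of these cells in the glycolytic values was not tested.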

How the data were processed

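The authors deposited a table with 2 values per gene and library. The first is an estimated count of reads (expected count) per gene, and the deposited estimated counts lie within 0.005 of a whole number for 18.8% to 23.7% of genes. The second has no named unit. Its values were taken for FPKM, since each library's deposited FPKM total falls between 441772 and 452971, unlike TPM. HISAT2, Cufflinks and RSEM and the mouse build GRCm38.p5 appear, per the submitters' processing notes, without version or role. That mouse build does not match the human row identifiers. The sources used here state neither strand setting nor annotation, so antisense partners and near-identical copies are uncertain; GAPDH, PGK1, LDHA, ENO1 and PGAM1 have known processed pseudogenes. No sequences or coordinates are given, because a human reference was not used here.

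Estimated counts were rounded, filtered with filterByExpr, scaled by TMM and tested across 16030 genes in edgeR 4.0.16 under R 4.3.3 (robust quasi-likelihood test with a term for genotype alone). A call is a Benjamini-Hochberg adjusted p under 0.05 over all genes tested. An SE is the absolute log2 fold change over the square root of F. Printed CPM are unrounded estimated counts over TMM-scaled totals; ratios of single libraries use CPM + 0.5. Alternatives were RLE scaling, no filter, DESeq2 1.42.0, limma 3.58.1 on log2(FPKM + 1) and log2(FPKM + 0.1) for genes with a mean of at least 1, each library left out, and the replicate number as a block. The edgeR step was tested on simulated data. The genes, lists and the rule for named genes were chosen with earlier results of these data known. All 33 genes are named; of each other list, those with the smallest p in all 4 libraries or called without WT replicate 1 were eligible. BSG, TKT, HIF1A, PKLR and HK3 were chosen after their values were seen.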

Additional observations from a re-analysis of the deposited data

How the results depend on the processing

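The count of genes called in edgeR was 0 with RLE scaling, with no filter and with limma on either FPKM scale, as with the settings reported, but 40 in DESeq2. Leaving out 1 library gave 0 to 8702 calls over all genes and 0 to 28 among the 33 genes, with 1065 and 3 without WT replicate 1, 8702 and 28 without WT replicate 2, and 0 and 0 without either KO library. The log2 fold change of STK26 was -1.49 on the log2(FPKM + 1) scale and -1.64 on the log2(FPKM + 0.1) scale, and the cause of the smaller size was not tested. It was -2.73 in DESeq2, and between -2.87 and -2.57 when 1 library was left out. The replicate number as a replicate block gave -2.74 for STK26, which then passed (adjusted p = 0.0104), 10 calls over all genes and 0 among the 33. The deviations of same-numbered libraries from their group means had a weak inverse correlation (r = -0.176 across genes). With 2 libraries a group, the crossed pairing has the same r with the sign turned. That crossed pairing, chosen after seeing the data, gave 4 calls over all genes and 0 among the 33. ENO1 turned to 0.0351 on both FPKM scales.

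No direction changed for the 33 genes with RLE scaling, no filter, DESeq2 or the block. Leaving out 1 library turned the direction of 17 of them. Their lowest and highest log2 fold changes were -1.28 and 0.0551 for GPI, -1.03 and 0.48 for PFKL, -0.45 and 0.71 for PFKFB2, -0.88 and 0.11 for PFKFB3, and -1.91 and 0.38 for PFKFB4. They were -1.42 and 0.0513 for ALDOC, -0.50 and 0.10 for TPI1, -0.0795 and 0.0620 for ENO1, -2.57 and 0.0624 for ENO2, -0.0157 and 0.29 for PKM, and -0.14 and 0.67 for LDHB. They were -1.35 and 0.20 for SLC16A3, -1.45 and 0.36 for PDK1, -0.0671 and 0.60 for PDHA1, -0.44 and 0.0326 for PGM1, -0.26 and 0.20 for GYS1, and -0.79 and 0.0717 for GBE1. All 17 turned without WT replicate 1, and PFKFB2, ENO1 and GYS1 also without KO replicate 1. The median of the 33 was between -0.65 and -0.0157 over the alternatives run, with -0.0157 without WT replicate 1.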

Other observations

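Antisense transcripts at a pair of the transporter genes were also measured, and were picked out after their values were seen. SLC16A1-AS1 was at 17.2 and 17.6 CPM in KO, against 17.7 and 10.8 CPM in WT replicates 1 and 2, and was called higher in KO without WT replicate 1 (log2 fold change 0.68, SE 0.20, edgeR adjusted p = 0.0173), while the value of SLC16A1 itself in that fit was -0.22 (SE 0.15). With all 4 libraries SLC16A1-AS1 did not pass (adjusted p = 0.845). SLC2A1-AS1 was at 4.57 and 4.45 CPM in KO, against 15.3 and 4.09 CPM in WT replicates 1 and 2, the same order of WT libraries as SLC2A1. Without a stated strand setting, reads of a gene and its antisense partner cannot be told apart.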
